A study of Mus musculus with 2 samples.

Results

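NAD (nicotinamide adenine dinucleotide) is the coenzyme that the sirtuin deacetylases spend when they remove acetyl groups, and the genes described here encode enzymes that make NAD or break it down. They are Nampt, Nmnat1, Nmnat2, Nmnat3, Nadk, Nadsyn1, Nmrk1, Qprt, Cd38 and Bst1, chosen by name. The choice was made with earlier results of these data known. Every non-control probe whose transcript identifier belongs to one of these 10 genes was taken, which gave 12 of the 55681 non-control probes on the array. Nadk and Bst1 had 2 probes each and the other 8 genes had 1. The cells were LSK cells, a bone marrow fraction negative for lineage markers and positive for Sca-1 and c-kit that contains the hematopoietic stem cells. One RNA sample came from nondiabetic C57BL/6J mice and the other from STZ-DM C57BL/6J mice, in which streptozotocin (STZ), a toxin of the insulin-producing beta cell, had induced diabetes. By the labels, each sample held RNA of 3 mice (8.3 ng of total RNA before amplification) and all mice were female, while the study's methods describe male mice. The age of the mice at sorting and the time after STZ are not in the labels, and the values of single mice cannot be told from a sample of 3. Each sample was hybridized to 1 one-colour Agilent array, so no difference below has a replicate check and no test was made.

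Cells obtain NAD by several routes. In the salvage route, Nampt joins nicotinamide to a phosphoribosyl group to give nicotinamide mononucleotide, and Nmrk1 makes the same product from nicotinamide riboside. In the de novo route, tryptophan is broken down along the kynurenine pathway to quinolinate, which Qprt converts to nicotinic acid mononucleotide. The Nmnat enzymes add the adenylyl group to either mononucleotide, and Nadsyn1 turns the acid form into NAD. Nadk phosphorylates NAD to NADP. Cd38 and Bst1 are related ectoenzymes of neighbouring genes that cleave NAD and form cyclic ADP-ribose, and both are also known as surface antigens of blood cells.

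Promoter sequence was at hand for 9 of the 10 genes, Bst1 being the other. It is shown for Nampt, which differed by less than 2-fold between the arrays, and for the 3 genes at least 2-fold higher in diabetic mice, Nmnat1, Qprt and Cd38. Such a difference was not rare on these arrays, where 11% of all genes lay past 2-fold upward and 10.1% downward. Each line holds the 250 bases before an annotated start in RefSeq on the build GRCm38.p6, on the strand of the gene, and the capitals mark the dinucleotide CG. For Nmnat1, which has 2 annotated starts with overlapping windows, 1 window is shown.
Nampt, plus strand, chr12:32820085-32820334: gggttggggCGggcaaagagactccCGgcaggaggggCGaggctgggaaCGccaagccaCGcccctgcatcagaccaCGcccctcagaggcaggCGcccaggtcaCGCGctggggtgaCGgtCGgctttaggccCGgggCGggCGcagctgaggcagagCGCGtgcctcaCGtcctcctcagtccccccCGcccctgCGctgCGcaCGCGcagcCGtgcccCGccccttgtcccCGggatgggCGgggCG
Nmnat1, minus strand, chr4:149485173-149485422: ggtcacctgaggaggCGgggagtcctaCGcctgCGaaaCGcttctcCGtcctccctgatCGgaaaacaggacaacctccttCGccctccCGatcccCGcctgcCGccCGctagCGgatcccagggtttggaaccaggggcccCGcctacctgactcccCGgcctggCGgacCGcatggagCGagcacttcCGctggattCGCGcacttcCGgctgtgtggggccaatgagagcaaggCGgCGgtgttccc
Qprt, minus strand, chr7:127122030-127122279: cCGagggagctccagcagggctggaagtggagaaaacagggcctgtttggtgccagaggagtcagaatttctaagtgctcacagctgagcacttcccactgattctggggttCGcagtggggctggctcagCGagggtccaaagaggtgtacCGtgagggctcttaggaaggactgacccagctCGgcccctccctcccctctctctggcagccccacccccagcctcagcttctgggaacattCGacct
Cd38, plus strand, chr5:43868559-43868808: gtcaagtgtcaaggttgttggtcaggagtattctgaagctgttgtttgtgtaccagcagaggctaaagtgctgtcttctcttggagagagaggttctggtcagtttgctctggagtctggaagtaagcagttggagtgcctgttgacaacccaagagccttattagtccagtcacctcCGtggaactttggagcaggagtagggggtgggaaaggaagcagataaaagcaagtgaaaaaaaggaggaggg

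The window held 27 CG in Nampt, 23 in Nmnat1, 6 in Qprt and 1 in Cd38, against a median of 6 over the 32851 promoter windows of the table. The Cd38 window was thus poor in CG and the Nampt and Nmnat1 windows were rich in it, so the 3 genes past 2-fold did not share this feature. The GC box GGGCGG, searched on both strands and itself holding 1 CG, occurred 5 times in the Nampt window and 1 time in that of Nmnat1, and was not found in those of Qprt and Cd38. It was present in 32.7% of all windows of this length. Among all 9 genes, with every annotated start counted, 5 had it, 3 had CCAAT on either strand (33.9% of all windows), and 0 had TATAAA (12.4%) or TGANTCA (6.75%). CACGTG, which 6.02% of all windows held, was found for 1 gene, in the second of the 2 windows of Nadk. These are matches of letters, and they carry no information on the binding of a factor.

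Signal over background was similar on both arrays, with 62.7% (nondiabetic) and 63.9% (diabetic) of the non-control spots well above background by the flag of the scanner software. Kit, which encodes c-kit, had intensities of 4635 (nondiabetic) and 4735 (diabetic). Ly6a, which encodes Sca-1, had 475 and 701, and Ptprc, which encodes the leukocyte antigen CD45, had 245 and 136, a log2 ratio of -0.97. Granulocyte-monocyte genes were also detected, 10 of the 11 with a probe on each array. Of these 10, 8 had a ratio below 0, 2 were past 2-fold downward (Ms4a3 and S100a8) and 0 past it upward. The 2 above 0 were Elane and S100a9, with log2 ratios of 0.50 and 0.10. Of all genes measured on both arrays, 49.5% had a ratio below 0. The shares past 2-fold among all genes were 10.1% downward and 11% upward. Intensities are given as the software wrote them, after its correction for background, together with its own error. Ratios are diabetic over nondiabetic on the log2 scale, after each array was scaled to its 75th percentile. The error of a ratio combines the software's errors of both spots. It covers the reading of the spots and leaves out differences between mice, sorts and amplifications. How far repeated spots of the same probe scatter was read from 237 probes printed at least 5 times. The SD of their ratios was 0.13 in the median probe, and it was 0.25 in the dimmest, 0.13 in the middle and 0.07 in the brightest of 3 groups of probes by signal. Levels of different probes are not compared as amounts of RNA, because probes differ in how strongly they bind. Summed intensities of marker lists are given before scaling, and they mostly follow the brightest probes of a list. In a bulk sample, fewer cells of a type and less RNA per cell cannot be told apart.

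The salvage genes Nampt and Nmrk1 differed by less than 2-fold between nondiabetic and diabetic LSK cells. The spot of Nampt, the rate-limiting enzyme of this route, gave 370 ± 37.1 (software error) for nondiabetic and 335 ± 33.6 for diabetic mice. The log2 ratio was -0.26, which is 1.28 times its error of 0.20 and more than the spread of 0.07 between spots of the brightest probes. Among the 13467 genes measured on both arrays, 36.2% had a smaller difference than Nampt. Nmrk1, the nicotinamide riboside kinase, was dim, with 26.9 ± 3.63 and 35.4 ± 4.29. Its log2 ratio of 0.28 was close to its error of 0.26 and to the spread of 0.25 between spots of the dimmest probes.

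**Figure D1:**
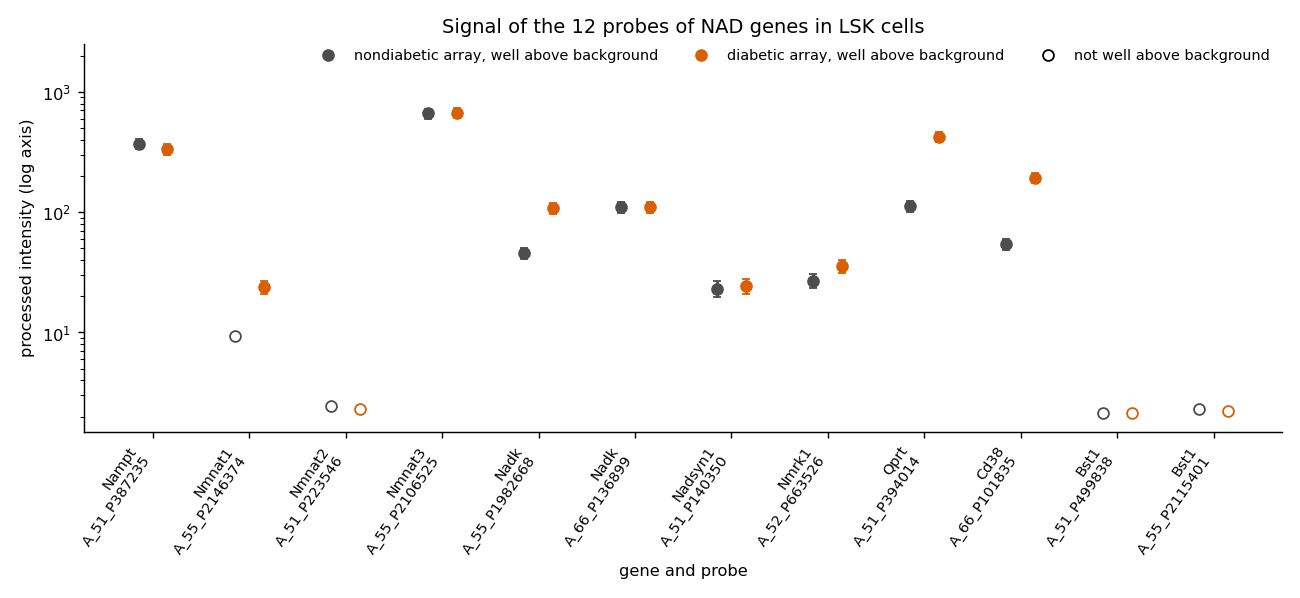
Processed intensity (log axis, arbitrary units) of the 12 probes of the NAD genes on the nondiabetic (grey) and the diabetic (orange) array. Each point is 1 spot, bars are the scanner software's error, and open circles mark spots not well above background. Nmnat2 and both probes of Bst1 lie between 2.13 and 2.46 on both arrays, while Qprt, Cd38 and the Nadk probe A_55_P1982668 are higher on the diabetic array.

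The 3 Nmnat genes gave 3 different pictures. Nmnat3, the mitochondrial form in textbook accounts, had intensities of 661 ± 66.1 and 670 ± 67.0, a log2 ratio of -0.10 with an error of 0.20, and thus lay within its error. Nmnat1, the nuclear form, was not well above background in nondiabetic mice, with 9.29 ± 2.23, and reached 23.9 ± 3.13 in diabetic mice. Before any correction, the nondiabetic spot of Nmnat1 had a median brightness of 49.5 over a local background of 33.5, and the diabetic spot had 67.0 over 29.0. Set against the lowest intensity well above background on the nondiabetic array, 10.2, Nmnat1 was higher in diabetic mice by at least 2.16-fold after scaling. This bound leaves out the error of the diabetic spot. Under another background correction, normexp, described below, the log2 ratio of Nmnat1 was 0.26. Nmnat2, the form best known from neurons, was well above background on neither array. Its intensities of 2.46 and 2.32 lay near the medians of the 308 negative control spots, 2.35 and 2.32, and no ratio is given.

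Qprt, the enzyme through which the kynurenine route enters NAD synthesis, had the highest ratio of the 7 NAD genes measured on both arrays, with Cd38 within the error of it. It went from 112 ± 11.4 (nondiabetic) to 424 ± 42.5 (diabetic), which is 3.50-fold higher after scaling. The log2 ratio of 1.81 was 8.78 times its error of 0.21. Of the 13467 genes measured on both arrays, 336 (2.49%) had a higher ratio. The genes that act before Qprt in this route, or draw from it, did not go the same way. Haao, which makes the direct precursor of quinolinate, had intensities of 358 and 223 and a log2 ratio of -0.80. Afmid, the formamidase of the route, was 2.81-fold lower, with 36.8 and 14.2, a log2 ratio of -1.49 with an error of 0.33. Its diabetic value was not far above the lowest intensity well above background on that array, 10.1. Kmo and Kynu, which act between Afmid and Haao, had log2 ratios of -0.11 and -0.18 by their brightest probes, both within their errors of 0.21 and 0.23. Acmsd, which diverts the pathway away from quinolinate, had a log2 ratio of -0.50. The genes of the first step, Tdo2, Ido1 and Ido2, were well above background on neither array. In all, 5 of the 8 genes of the kynurenine list were measured on both arrays, and by their brightest probes 5 of these 5 had a ratio below 0, 1 of them past 2-fold. With background correction by normexp, an alternative processing described below, 0 of the 5 were past 2-fold. Of all genes measured on both arrays, 49.5% had a ratio below 0. The second probe of Kynu was on the same side, at least 2.15-fold lower, whereas that of Kmo was at least 1.78-fold higher, so with the mean over a gene's probes Kmo turned and 4 of the 5 lay below 0.

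Nadsyn1, the NAD synthetase that acts on the product of Qprt and Nmnat, had intensities of 23.2 ± 3.42 and 24.4 ± 3.52. The log2 ratio was -0.04 with an error of 0.30, and both intensities lay within each other's error. Naprt, through which nicotinic acid enters the same branch, had intensities of 261 and 364 and a log2 ratio of 0.36.

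The 2 probes of Nadk, the cytosolic NAD kinase, did not give the same result, although both are assigned to the transcript NM_001159637. Probe A_66_P136899, which was the brighter of the pair and stands for the gene in counts, had an intensity of 109 on both arrays, with errors of 11.3 on each and a log2 ratio of -0.12. Probe A_55_P1982668 had 45.7 ± 5.08 and 107 ± 11.0, which is 2.17-fold higher in diabetic mice, a log2 ratio of 1.11 with an error of 0.22. The ratios of the probes thus differed by 1.23, more than their errors of 0.21 and 0.22. Differences of this size were not rare. Among 2448 transcripts with 2 probes measured on both arrays, the ratios differed by at least as much in 24.5%, and the median difference was 0.57. The direction for Nadk is therefore not settled by these arrays. Nadk2, the mitochondrial NAD kinase, had a log2 ratio of 0.21.

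Of the NAD-cleaving ectoenzymes, Cd38 was detected and Bst1 was not. The Cd38 spot gave 54.1 ± 5.96 for nondiabetic mice and 193 ± 19.4 for diabetic mice. It was 3.28-fold higher after scaling, and its log2 ratio of 1.71 was 7.96 times its error of 0.22. Of all genes measured on both arrays, 406 (3.01%) had a higher ratio. The probes of Bst1 had intensities of 2.13 and 2.14 (A_51_P499838) and of 2.32 and 2.23 (A_55_P2115401). These lay under the medians of the negative control spots, and no ratio is given. Cd38 is also a known antigen of B cells and plasma cells, so the genes of these cells were read beside it. Of 10 B cell genes, 6 were well above background on each array, 7 had a ratio or bound, 2 of the 7 were at least 2-fold higher in diabetic mice, and 1 was at least 2-fold lower, against shares of 11% and 10.1% among all genes. Their summed intensity was 780 and 1166, most of it from Vpreb1 with 535 and 811. Cd79a, a part of the B cell receptor, was 2.85-fold higher and Igll1, a surrogate light chain of early B cells, at least 3.39-fold higher. Blnk, an adaptor of B cell receptor signalling, was at least 2.08-fold lower, and Cd79b, the partner of Cd79a, had a log2 ratio of -0.39. The defining markers Ms4a1, Ebf1 and Vpreb3 were well above background on neither. Of 5 plasma cell genes, 0 were past 2-fold upward and 3 past it downward (Jchain, Mzb1 and Tnfrsf17). The other 2, Sdc1 and Xbp1, had log2 ratios of 0.92 and 0.80. The summed intensity of this list, before scaling, was 1521 and 1549. Most of it came from Jchain (694 and 254) and Xbp1 (620 and 1171). Of the 7 erythroid genes with a ratio, 3 were at least 2-fold higher (Slc4a1, Hba-a1 and Hbb-b1), while Klf1 and Epor had -0.30 and -0.20. The summed intensity of the list was 2724 and 6355, most of it from Hba-a1 with 1984 and 4967. Of the T and NK cell genes, 0 of 8 were past 2-fold upward and 2 past it downward. Of 5 megakaryocyte genes, 1 was past it upward and 0 downward. Of 5 stromal and endothelial genes, 1 was past it upward (Pecam1, 5.32-fold) and 1 downward (Col1a2, 2.10-fold). In the same list, Kdr had a log2 ratio of -0.11 and Cdh5 was well above background on neither array. The part of these genes in the result for Cd38 was not tested.

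**Figure D2:**
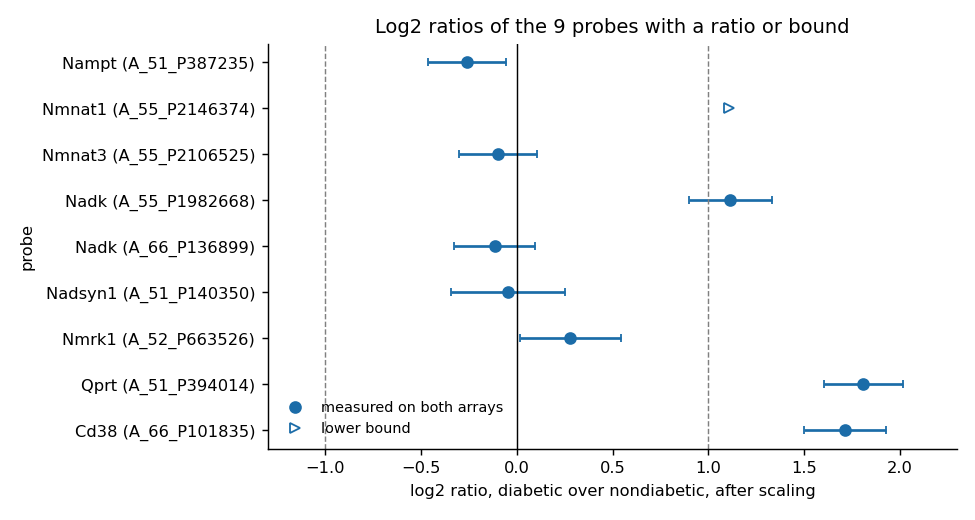
Log2 ratio of diabetic over nondiabetic LSK cells after scaling, for the 9 probes with a ratio (filled circles, bars are the error from the scanner software) or a lower bound (open triangle). Dashed lines mark a 2-fold difference. Qprt at 1.81 and Cd38 at 1.71 lie beyond the line with their whole error, the probes of Nadk lie apart at 1.11 and -0.12, and the other 4 measured probes lie between -0.26 and 0.28.

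Counted by the brightest probe, 7 of the 10 genes were measured on both arrays, Nmnat1 had a bound, and Nmnat2 and Bst1 had no ratio. Among these 8 genes, 3 were past 2-fold upward in diabetic mice (Qprt, Cd38 and Nmnat1), 0 were past 2-fold downward and 5 differed by less. The shares of 11% and 10.1% among all genes were taken over the 15192 that had a ratio or bound, and they differed with signal. With probes split by signal into 3 groups of equal size, 13.3% of the genes in the middle group, where Qprt and Cd38 lie, were past 2-fold upward, against 4.67% in the brightest group, where Nampt and Nmnat3 lie. The median log2 ratio of the 8 genes was 0.12, against 0.02 over all genes. With 8 genes on 1 pair of arrays, the share past 2-fold was not tested against that of all genes, and no difference from it is claimed.

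The other genes of NAD metabolism, 58 in 8 lists, had a probe for 55, and 44 of these had a ratio or bound. Of the 44, 6 were past 2-fold upward in diabetic mice, 2 were past it downward and 36 differed by less. Among all genes, 11% were past 2-fold upward and 10.1% downward. The median log2 ratio over all genes was 0.02, and that of the 44 was -0.15. By the brightest probes, Nudt12, a hydrolase of NADH in textbook accounts, had the highest ratio, going from 21.1 to 180, 7.84-fold higher. The second probe of Nudt13 (A_55_P2170673) had a higher one, a log2 ratio of 4.99. Of the 7 sirtuins, 2 were at least 2-fold higher, Sirt1 at 1.89 and Sirt6 at 1.24 on the log2 scale, and the other 5 lay below 0, with Sirt7 at -0.60. Of all genes measured on both arrays, 49.5% lay below 0. The second probe of Sirt6 had -0.04 and that of Sirt7 had 0.67, and with the mean over a gene's probes 4 sirtuins lay below 0 and 1 was at least 2-fold higher. Background correction by normexp likewise left 1 at least 2-fold higher. Of the 15 PARPs, which spend NAD to attach ADP-ribose to proteins, Parp16 was 5.61-fold and Parp12 3.28-fold higher, and Parp11 was 4.78-fold lower. Parp1, the main consumer of NAD after DNA damage, had intensities of 240 and 145 and a log2 ratio of -0.84. Ryr1, a calcium release channel of the ryanodine receptor family, was not well above background in nondiabetic mice and was at least 4.03-fold higher in diabetic mice.

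By the brightest probes, no gene passed 2-fold in the lists of salvage, nicotinamide clearance, and other glycohydrolases and ADP-ribosyltransferases. Of the genes for salvage and precursor entry, 4 were measured on both arrays and 0 passed 2-fold in either direction. Pnp, the purine nucleoside phosphorylase, had a log2 ratio of 0.85 by its brightest probe and -0.45 by its other. Slc25a51, the mitochondrial NAD carrier, belongs to the list of Nudt12 and had -0.17 by its brightest probe and 0.27 by its other. Nnmt, which methylates nicotinamide, had -0.24. Tnks2, a tankyrase among the PARPs, had 0.50 by its brightest probe and -0.51 by its other. Tpcn1, a channel of endolysosomes in the list of Ryr1, had 0.97. Of the other glycohydrolases and ADP-ribosyltransferases, 3 were measured, 0 passed 2-fold, and Art4 had -0.94 by its brightest probe and 0.59 by its other. Sarm1, a NAD hydrolase known from axons, was well above background on neither array.

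**Figure D3:**
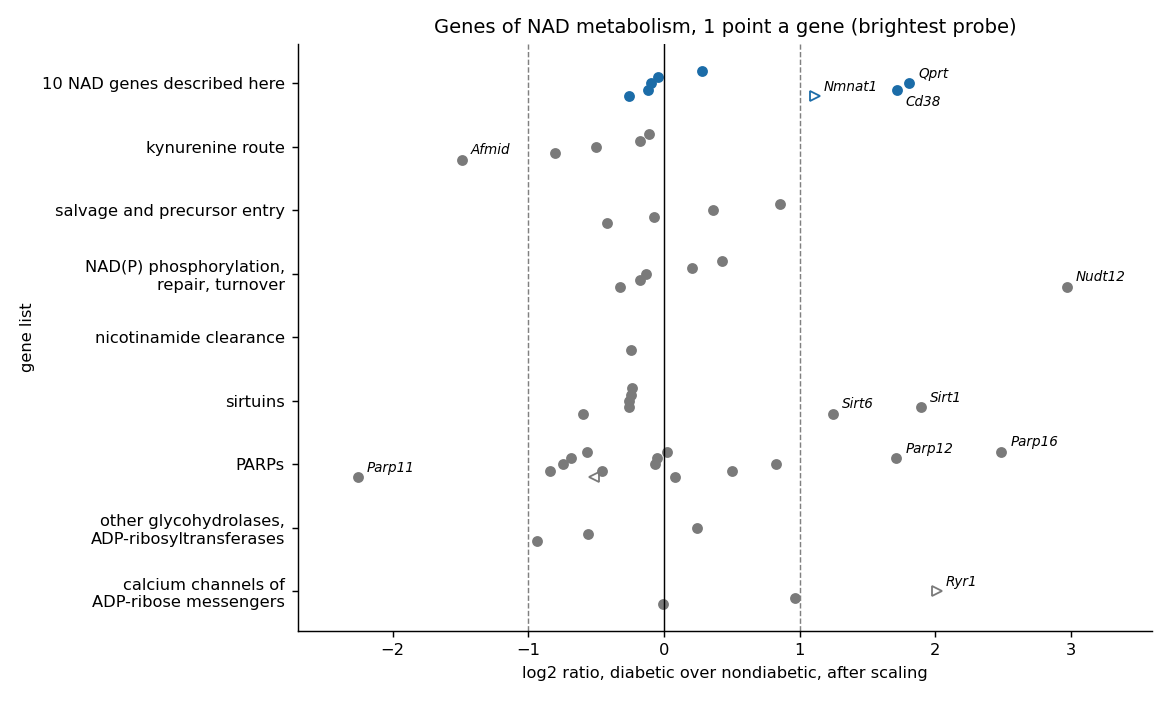
Log2 ratio of diabetic over nondiabetic LSK cells for the NAD genes described here (blue) and for the other lists of NAD metabolism (grey), 1 point for the brightest probe of each gene with a ratio or bound, stacked only for legibility. Triangles are bounds, dashed lines mark 2-fold, and genes past 2-fold are named. By these probes the kynurenine list lies below 0, between -1.49 and -0.11 (the second probe of Kmo is above 0 and not drawn), while Qprt, which uses its end product, lies at 1.81.

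The processing moved several of these ratios. Background correction by normexp, applied to the median spot signal with an offset of 50, left 1 of the 3 genes past 2-fold. Qprt then had a log2 ratio of 1.45, while Cd38 was just under 2-fold at 0.98 and Nmnat1 had 0.26.

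**Figure D4:**
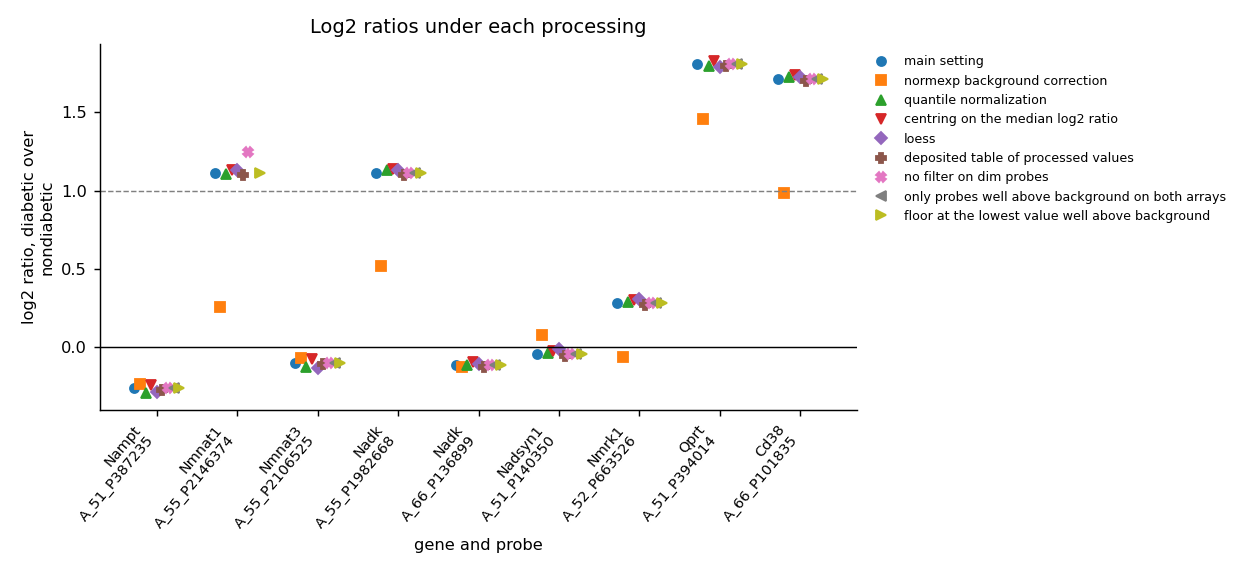
Log2 ratio of diabetic over nondiabetic LSK cells for the 9 probes with a ratio or bound, under the main setting and each alternative for a probe. The dashed line marks 2-fold higher. Qprt lies between 1.45 and 1.83 under the alternatives, and normexp (orange squares) takes Cd38, Nmnat1 and the Nadk probe A_55_P1982668 below the line.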

How the data were processed

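LSK cells of nondiabetic and STZ-DM mice were each measured on 1 array, with amplified cDNA labelled with Cy3. For each array the authors deposited scanner output (Agilent Feature Extraction 11.5.1.1, grid build mm9), whose processed intensity is background-corrected within the array and not normalized between arrays. A deposited table of processed intensity for both arrays equalled it times 1 constant for each array. Its scale and centring are not stated, and the direction of all ratios comes from the labels.

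Here log2 of the processed intensity minus the array's 75th percentile (168 and 182 in intensity) was used. Outlier spots were left out, spots of a probe averaged, and a gene was represented by its brightest probe (mean log2 signal over both arrays). A probe well above background on 1 array was given as a bound against the higher of its dim value and the lowest intensity well above background (10.2 and 10.1). Such a bound leaves out the error of the spot. Transcript identifiers were named through RefSeq (GRCm38.p6), which gave 28319 probes and 21360 genes. All members, Kit, Ly6a and, of the wider NAD lists, the sirtuins, the genes past 2-fold and the brightest measured gene of each list were to be named, and other marker genes were named after their values were seen.

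No test was made, since 1 array per condition leaves no replicate spread. The alternatives were normexp (offset 50, median spot signal), quantile normalization, median centring, loess, the deposited table, 3 treatments of dim probes and the mean over probes. The scripts were tested on simulated data. The value of 1 marker gene is not reported here. The members and lists were chosen with earlier results of these data known. Python 3.11.15, numpy 2.4.6, pandas 2.3.3, R 4.3.3 and limma 3.58.1 were used.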

Additional observations from a re-analysis of the deposited data

How the results depend on the processing

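Quantile normalization, median centring, loess, the deposited table and the floor left 3 NAD genes at least 2-fold higher and 0 lower, and no alternative gave a NAD gene at least 2-fold lower. Under normexp the genes at least 2-fold higher went from 3 to 1 among the NAD genes and from 6 to 3 in the wider list, and those at least 2-fold lower in the wider list from 2 to 1. Of all genes, 599 were then past 2-fold upward (1667 before) and 496 downward (1538 before). This setting changed the spot signal, the correction and the offset together, and the cause was not tested. Normexp also turned the small ratios of Nmrk1 to -0.06 and of Nadsyn1 to 0.08. With bounds left out, 2 NAD genes were at least 2-fold higher, since Nmnat1 then has no value, and the median of the NAD genes was -0.04. With no filter on dim probes, 4 genes of the wider list were at least 2-fold lower and 8 at least 2-fold higher, with 2433 and 2275 of all 21360 genes at least 2-fold higher and lower, since dim probes then count. Where a gene took the mean of its probes, the median log2 ratio of the NAD genes moved from 0.12 to 0.39, as the second probe of Nadk then enters. Signal over background limits Nmnat1, Nmnat2 and Bst1. No replicate could be left out. No paired analysis was possible because there is a single array for each group.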

Other observations

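Probes of the same gene often disagreed in the wider NAD lists as well. Of 15 genes there with several probes with a ratio or bound, 11 had probes on opposite sides of 0, and in 10 the probes were more than 2-fold apart. For Nudt13, another member of the Nudix hydrolases, the second probe (A_55_P2170673) went from 13.8 on the nondiabetic array to 476 on the diabetic array, a log2 ratio of 4.99, while its brightest probe by mean signal (A_51_P521374) had 0.43. The second probe of Parp6 (A_55_P2079490) had a log2 ratio of 1.63, against -0.45 for the brighter one. For Tiparp, the second probe (A_51_P514961) was at least 2.74-fold lower, against a log2 ratio of 0.02 for the brighter one. For Parp16 both probes lay above 0, at 2.49 and 0.57. These genes were chosen after their values were seen, and the cause of the differences between probes was not tested.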
